A study of Mus musculus with 10 samples.

Results

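Imprinted genes are described here in 10 clones of 3T3-L1, a mouse preadipocyte line, leaving out Mest and Grb10. The group was named gene by gene and held 34 genes. A member was measured by a probe set annotated to its symbol alone, and by the brightest such probe set where there were several. Of the 34 members, 27 had a probe set of their own, out of 19937 genes measured in this way in all, and none of the 27 had more than 1. Snrpn, Ube3a and Gnas had only a probe set shared with other genes, and H19, Zrsr1, Kcnq1ot1 and Slc22a3 had none in the annotation used, so these 7 genes were not analysed here. Rian, Zim1 and Usp29 lay below the intensity filter explained further on, which left 24 members in the tests.

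3T3-L1 is an embryonic mouse fibroblast line that becomes fat-storing when treated with insulin, dexamethasone and IBMX. Each of the 10 lines was grown from a single colony, and its class, Low or High, rests on the triglyceride it stored after that cocktail. The arrays measured untreated, proliferating, sub-confluent cells kept in DMEM with 10% serum, 5 Low and 5 High lines with 1 array each, so every value belongs to 1 clone. In the order of their replicate numbers, the Low clones are named 1E7, 2D7, 2F1, 4D11, 4H4. Those of the High class are named 3F4, 4D2, 4E3, 5C4, 5D4. No genetic change or drug separates the classes in the labels. Of 14 fibroblast and preadipocyte markers with a probe set, 13 exceeded the array's 25th percentile in all 10 arrays, Lum being the exception. Of 22 markers of other cell types, Ptprc, Adgre1 and Adipoq stayed below it in every array and 17 passed the filter, which is a low bar and does not by itself show expression. Their mean signal ran from 7.10 to 7.18 in Low and from 7.13 to 7.36 in High lines. Of the 17, 16 had a positive High minus Low difference (median 0.08), as had 10 of the 13 fibroblast markers tested (median 0.07), and with the trend with mean signal removed the counts were 10 of 17 and 10 of 13. Over all tested genes 58.0% of differences were positive, and 51.3% with the trend removed. In either list 0 genes passed the adjusted threshold in limma. An unadjusted p under 0.05 in limma was reached by 2 of 17 markers of other cell types (Myog and Nanog, 11.8%). The same held for 3 of 13 fibroblast markers (Pdgfra, Thy1 and Pparg, 23.1%), against 7.95% of all tested genes. All of these were higher in High lines, as 3.16% of all tested genes were. Pparg separated the classes without overlap, as 1.57% of all tested genes did. The part of these markers in the results was not tested.

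An imprinted gene is transcribed mainly from the copy inherited from 1 parent, and the copy from the other parent is held silent by marks, DNA methylation above all, set in the germ line. Many such genes lie in domains that share a control region, so that a paternally expressed coding gene often sits beside a maternally expressed non-coding RNA, or the reverse. The group acts largely on growth. IGF2 drives it, IGF2R removes IGF2, and CDKN1C stops the cell cycle. DLK1, also called preadipocyte factor 1, holds preadipocytes back from becoming fat cells, and PEG3, NDN and MAGEL2 have been studied in fat tissue and energy balance. The arrays sum the RNA of both parental copies, so the values give amounts and do not show which copy was transcribed.

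The members with a line far from the others, and the neighbour of the most lowered member, are shown by the start of the gene as RefSeq gives it on GRCm38.p6, from 250 bases before the start to 50 bases after it. CpG pairs, where DNA methylation is laid down, stand in capitals. The window of Ndn is chr7:62348027-62348326 on the plus strand, that of Magel2 chr7:62376729-62377028 on the plus strand, that of Peg3 chr7:6730370-6730669 on the minus strand and that of Slc22a18 chr7:143473539-143473838 on the plus strand. Ndn is shown because 1 line was low there, Magel2 as its neighbour in the domain, and Peg3 and Slc22a18 because 1 line was high there.
Ndn: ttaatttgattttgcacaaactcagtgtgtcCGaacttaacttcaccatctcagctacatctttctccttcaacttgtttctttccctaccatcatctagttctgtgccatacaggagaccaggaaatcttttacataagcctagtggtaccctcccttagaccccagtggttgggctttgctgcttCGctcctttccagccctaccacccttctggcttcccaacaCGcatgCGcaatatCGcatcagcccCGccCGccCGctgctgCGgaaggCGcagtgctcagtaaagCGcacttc
Magel2: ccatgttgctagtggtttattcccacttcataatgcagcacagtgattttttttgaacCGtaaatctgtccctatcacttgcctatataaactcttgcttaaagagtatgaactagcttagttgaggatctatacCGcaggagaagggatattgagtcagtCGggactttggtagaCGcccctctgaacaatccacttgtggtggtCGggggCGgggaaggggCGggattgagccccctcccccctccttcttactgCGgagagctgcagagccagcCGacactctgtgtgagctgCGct
Peg3: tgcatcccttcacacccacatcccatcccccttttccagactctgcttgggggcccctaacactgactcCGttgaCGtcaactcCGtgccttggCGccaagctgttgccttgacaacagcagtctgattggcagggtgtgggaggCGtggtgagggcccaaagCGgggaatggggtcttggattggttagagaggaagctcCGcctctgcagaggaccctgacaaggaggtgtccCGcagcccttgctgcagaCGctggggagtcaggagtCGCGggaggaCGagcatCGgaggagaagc
Slc22a18: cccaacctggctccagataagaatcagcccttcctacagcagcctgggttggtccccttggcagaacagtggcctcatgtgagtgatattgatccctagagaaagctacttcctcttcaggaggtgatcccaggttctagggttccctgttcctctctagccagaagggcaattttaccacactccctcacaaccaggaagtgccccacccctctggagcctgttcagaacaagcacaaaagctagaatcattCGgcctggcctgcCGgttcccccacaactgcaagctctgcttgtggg
The windows hold 11 CpG pairs in Ndn, 10 in Magel2, 13 in Peg3 and 2 in Slc22a18. Of 32851 such windows of all genes, 41.4% had at least as many as Ndn, 43.5% as Magel2, 37.9% as Peg3 and 85.9% as Slc22a18. Usp29, which encodes a ubiquitin-specific protease, starts on the opposite strand, and its window shares 263 bases with that of Peg3. The letters TGCCGC, the core read by the imprint-keeping protein ZFP57, were searched on both strands. They were in 0 of these 4 windows, in 7 of 43 windows of 29 members and in 11.6% of all windows.

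All 10 arrays had a median log2 intensity between 7.74 and 7.84. High replicate 4 stood somewhat apart. Its mean correlation with the other arrays was 0.987, against 0.991 to 0.993 for the rest, and its deviations fell with a gene's mean signal across the tested genes (r = -0.37, a description across genes that are not independent, against -0.11 to 0.24 in the others). A gene was tested when it exceeded the array's 25th percentile, 6.38 to 6.47, in at least 5 of the 10 arrays. A log2 intensity depends on the probes as well as on the RNA, so levels are compared between lines and not between genes.

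The variation of the imprinted members from line to line was set against that of all tested genes. The range over the 10 lines had a median of 0.52 on the log2 scale over the 24 members, against 0.45 over all 16339 tested genes. It reached 1 log2 unit in 6 members (Peg3, Ndn, Igf2, Slc22a18, Plagl1 and Airn), where it did in 5.86% of all tested genes. A line was counted as apart where it lay at least 1 log2 unit, a 2-fold change, from the median of the 10 lines. This held for 3 of 24 members, Ndn on the low side and Peg3 and Slc22a18 on the high side, where 1.82% of all tested genes had such a line (1.06% with a line below, 1.1% with a line above). Just inside the limit was Slc22a18 at 1.05, and just outside it were Igf2 at 0.96, Plagl1 at 0.75 and Airn at 0.70. The other 18 members stayed within 0.44 of their median in every line, as the map of deviations shows.

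**Figure D1:**
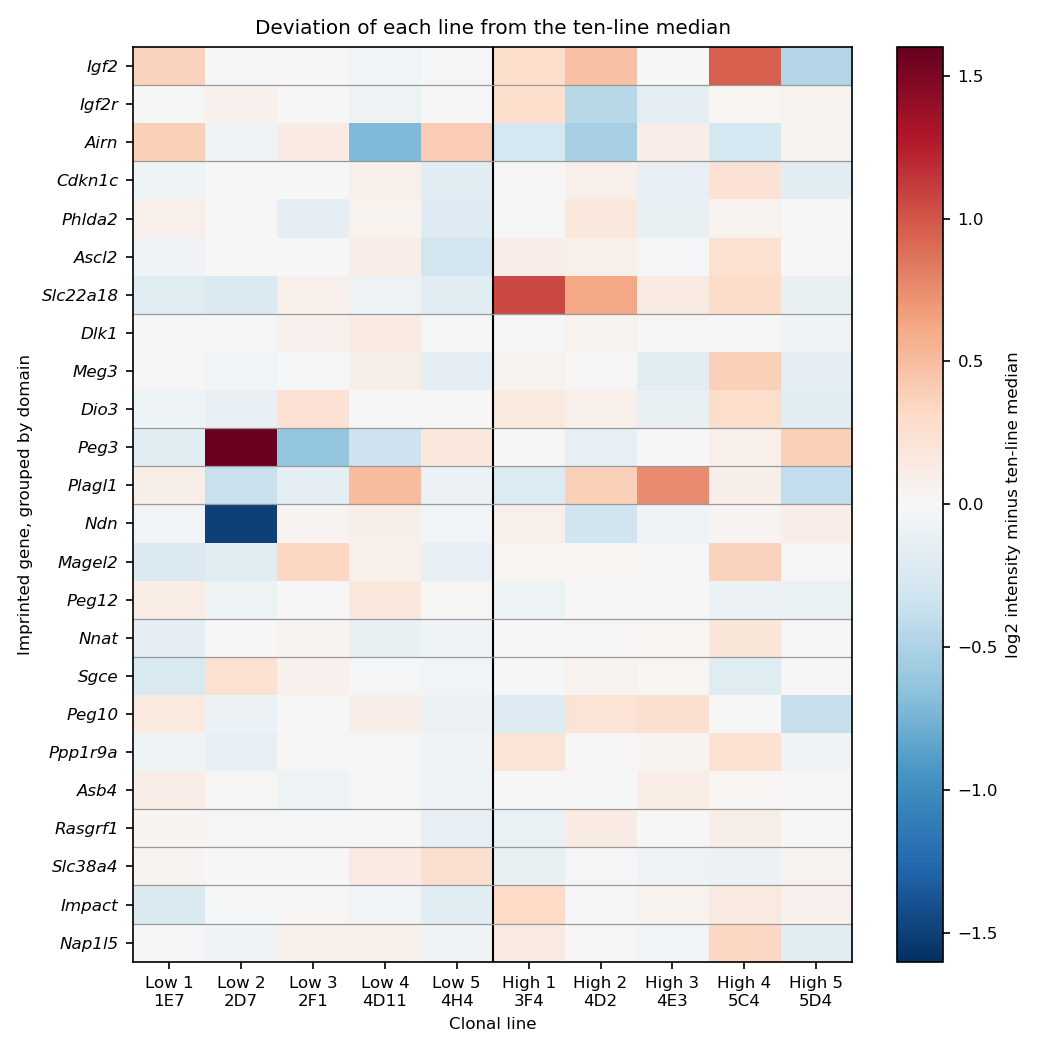
Deviation of each line's log2 intensity from the median of the 10 lines (colour scale in log2 units, red above and blue below) for the 24 tested imprinted genes in rows and the lines in columns, with rules between domains and a bar between Low and High lines. Low replicate 2 holds the strongest colours, in Peg3, at 1.58, and in Ndn, 2.82-fold below its median, and most other cells are pale.

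Ndn was lower in 1 clone than in the other 9. Ndn, the gene of necdin, a MAGE protein that restrains cell division, is expressed from the paternal copy in the Prader-Willi/Angelman domain (Entrez gene 17984, probe set 10553833). Its log2 intensity was 12.19, 10.74, 12.28, 12.32 and 12.19 in Low replicates 1 to 5 and 12.31, 11.91, 12.17, 12.28 and 12.33 in High replicates 1 to 5. Low replicate 2 (clone 2D7) lay 2.82-fold below the median of the 10 lines, 12.23, while the other 9 lines held within 11.91 to 12.33 (SD 0.13). Its value still exceeded that array's 25th percentile of 6.40, so the signal was lowered and not lost. In a bulk array, fewer cells with the transcript and less transcript per cell cannot be told apart. Its neighbours were within 0.30 of their own medians in that clone. Magel2, another MAGE gene, measured 7.13 in Low replicate 2 against 7.08 to 7.68 in the other lines, and Peg12, a Frat family gene, 9.02 against 8.99 to 9.28. Of the other genes of the region, named here after their values were seen, Mkrn3, which encodes a zinc finger ubiquitin ligase, was highest in this line at 7.06 (6.72 to 6.95 in the others). Atp10a, the gene of a phospholipid flippase, was lowest in it at 10.34 (10.48 to 10.84). Magel2 and Mkrn3 gave signals near 7.10 to 7.18, where the markers of other cell types averaged in Low lines. At that level a fall like that of Ndn could hardly show. The 50 nearest tested genes had a median deviation of -0.01 from their own means over the 10 lines in Low replicate 2.

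Peg3 was higher in the same clone. Peg3, a paternally expressed gene for a large zinc finger protein (Entrez gene 18616, probe set 10559796), measured 8.77, 10.52, 8.30, 8.61 and 9.11 in Low replicates 1 to 5 and 8.93, 8.81, 8.95, 9.02 and 9.31 in High replicates 1 to 5. Low replicate 2 was 1.58 above the median of the 10 lines, or 2.99-fold higher, and the other 9 lines spanned 8.30 to 9.31 (SD 0.29). Usp29, which shares the divergent start region with Peg3, measured 6.44 there, inside its range of 6.21 to 6.56 over the 10 lines, and was below the filter. Zim1, the maternally expressed zinc finger gene on the other side, measured 6.41 and was below the filter too. Its highest value, 6.87, was in High replicate 4. The 50 nearest tested genes had a median deviation of -0.01 in Low replicate 2.

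Low replicate 2 was also the line in which Grb10, the imprinted growth factor receptor adaptor, was lowest, at 6.75 against 9.19 to 12.29 in the other 9 lines. Low Ndn did not recur in the other lines with low Grb10, High replicates 4 and 5, where Ndn measured 12.28 and 12.33. Over all tested genes, Low replicate 2 was at least 1 log2 unit low for 0.184% and high for 0.288%. Among 65 imprinted genes tested, members and a wider list together, it was low for 3 (Ndn, Grb10 and Tfpi2, a serine protease inhibitor gene) and high for 1 (Peg3).

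**Figure D2:**
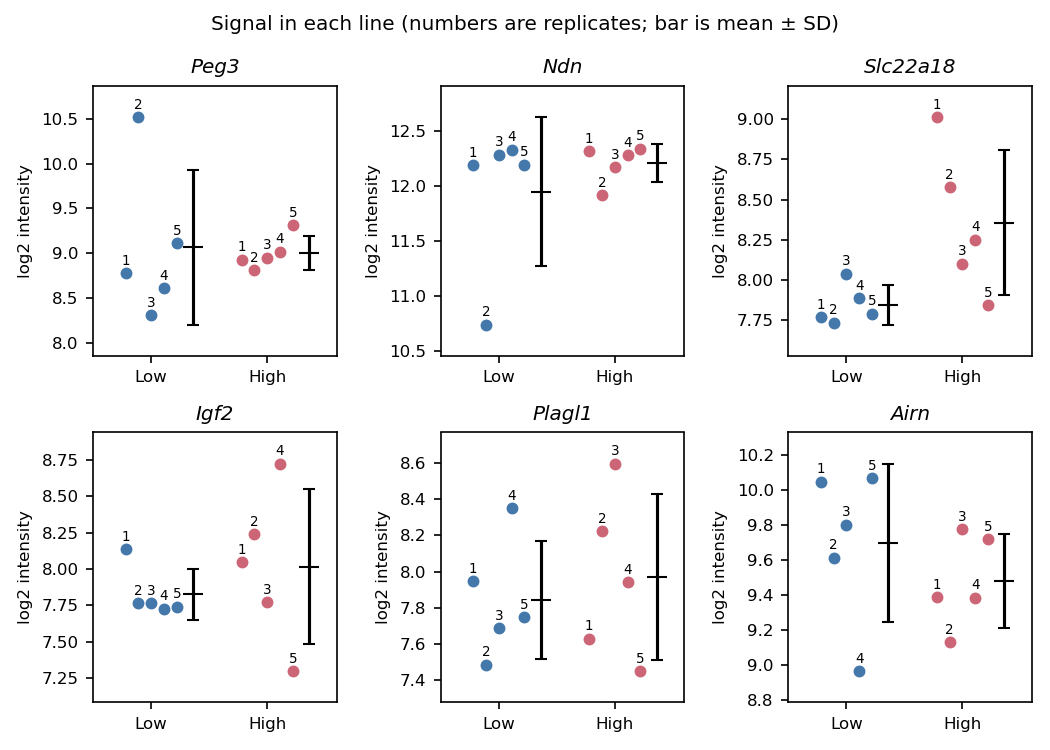
Log2 intensity of the 6 most variable imprinted genes in every line, with Low lines in blue and High lines in red, the replicate number above each point and the class mean ± SD (n = 5) as a black bar; the vertical axes do not start at 0. Low replicate 2 is alone at 10.52 for Peg3 and at 10.74 for Ndn, and High replicate 1 is highest for Slc22a18 at 9.01.

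Slc22a18 had the largest difference between the classes among the 24 members. It encodes a membrane transporter and is expressed from the maternal copy in the domain controlled by Kcnq1ot1 on distal chromosome 7 (Entrez gene 18400, probe set 10559297). It measured 7.77, 7.73, 8.04, 7.89 and 7.79 in Low replicates 1 to 5, and 9.01, 8.58, 8.10, 8.25 and 7.84 in High replicates 1 to 5. High replicates 1 to 4 lay above every Low line, and High replicate 5 lay inside the Low range. Low lines averaged 7.84 ± 0.12 and High lines 8.36 ± 0.45 (SD, n = 5), which is 0.51 higher (SE 0.18, 95% confidence interval 0.13 to 0.90), or 1.43-fold. It did not pass the threshold (limma adjusted p = 0.480, unadjusted p = 0.0136). Without High replicate 1 the difference was 0.35 (limma adjusted p = 0.761), and without High replicate 5 it was 0.64 (limma adjusted p = 0.222). The neighbours Cdkn1c, Phlda2 and Ascl2 were within 0.11 of their medians in High replicate 1, where Slc22a18 was 1.05 above its own. Tspan32, a tetraspanin gene of the same domain, was 0.57 above its median in High replicate 1, at 7.50. It measured 7.53, 6.98, 7.13 and 6.89 in High replicates 2 to 5 and 6.76 to 7.01 in Low lines, so both genes were highest in High replicates 1 and 2. Tspan32 was singled out after its values were seen, and the likeness was not tested. The domain's other listed genes, Cd81, Tssc4, Kcnq1, Nap1l4, Osbpl5 and Tnfrsf23, were within 0.15 of their medians in that line. High replicate 1 was at least 1 log2 unit high for 0.251% of all tested genes.

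Between High and Low lines 0 of 24 members passed an adjusted p under 0.05 in limma, where 0.00612% of all tested genes did, which is 1 gene. At an unadjusted p under 0.05 there were 2 members, Slc22a18 and Impact, both higher in High lines, where 7.95% of all tested genes were past it, 3.16% on the higher side and 4.79% on the lower. None of the 24 separated the classes without overlap, as 1.57% of all genes did. Differences ran from -0.22 (Airn) to 0.51 (Slc22a18), and 16 were positive and 8 negative. Their median was 0.05, against 0.02 over all tested genes. With the trend of each array with mean signal removed, the split was 11 positive to 13 negative and the median -0.0041, and without High replicate 4 it was 13 to 11 and 0.018. Every member's 95% interval lay within 1 log2 unit of 0, and that of 18 members within a 1.5-fold change either way. Of 8 maternally expressed members 7 had a positive difference (median 0.05), and of 16 paternally expressed members 9 had one (median 0.04), where 58.0% of all tested genes did. With the trend removed these counts were 4 of 8 and 7 of 16, against 51.3% of all tested genes.

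**Figure D3:**
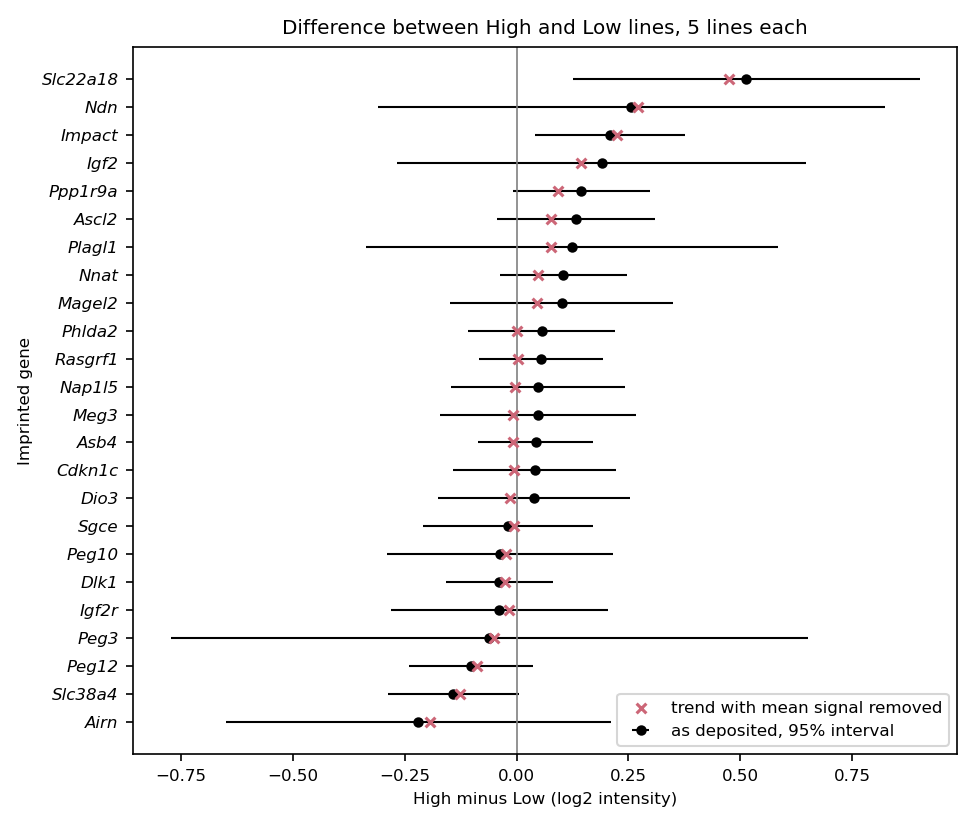
High minus Low difference in log2 intensity for the 24 tested members (black points, bars are 95% confidence intervals from limma, 5 lines per class), with red crosses for the values after removal of each array's trend with mean signal. The intervals of Slc22a18 and Impact leave out 0, and the median over the members moves from 0.05 to -0.0041 once the trend is removed.

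Impact was the other member with an unadjusted p under 0.05. It encodes a paternally expressed inhibitor of the amino acid sensing kinase GCN2. Low lines measured 11.15, 11.34, 11.39, 11.33 and 11.20, and High lines 11.70, 11.36, 11.43, 11.52 and 11.44, so the ranges overlapped through High replicate 2. The means were 11.28 ± 0.10 and 11.49 ± 0.13 (SD, n = 5), a difference of 0.21 (SE 0.08, limma adjusted p = 0.511, unadjusted p = 0.0187). Without High replicate 1, the highest line, the difference was 0.16, and without Low replicate 1, the lowest, it was 0.17. On the other side lay Slc38a4, which encodes an amino acid transporter and is expressed from the paternal copy. It measured 12.92 to 13.18 in Low lines (median 12.97) and 12.81 to 12.98 in High lines (median 12.84), a difference of -0.14 that did not pass (limma adjusted p = 0.648).

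Igf2 had the widest range of the members after Peg3 and Ndn, 1.43 on the log2 scale. The gene of this fetal growth factor is paternally expressed (Entrez gene 16002, probe set 10569344). Low lines measured 8.14, 7.76, 7.76, 7.73 and 7.74, and High lines 8.05, 8.24, 7.77, 8.73 and 7.30. The High lines thus held both the highest value, in replicate 4, and the lowest, in replicate 5, 2.70-fold apart. The difference between the classes was 0.19 (95% confidence interval -0.27 to 0.65, limma adjusted p = 0.829), and leaving out High replicate 4 gave 0.01, leaving out High replicate 5 gave 0.37. Igf2r, whose receptor carries IGF2 to lysosomes, stayed between 10.81 and 10.97 in Low lines and ran from 10.45 in High replicate 2 to 11.18 in High replicate 1. Its difference was -0.04 (limma adjusted p = 0.931).

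Airn, the paternally expressed antisense RNA that silences Igf2r on the same chromosome copy, ran from 8.96 in Low replicate 4 to 10.07 in Low replicate 5. High lines lay between 9.13 and 9.78, inside that range. The difference was -0.22 (95% confidence interval -0.65 to 0.21, limma adjusted p = 0.807). Without Low replicate 4 it was -0.40, with an unadjusted p under 0.05 in limma, and the adjusted threshold was not passed. In Low replicate 4, where Airn was lowest, Igf2r measured 10.81, its lowest value among the Low lines. The other Low lines ran from 10.89 to 10.97, and High replicates 2 and 3 were lower still, at 10.45 and 10.75.

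The other tested members in the domain of Slc22a18 differed little between the classes. Cdkn1c, the gene of the cell cycle inhibitor p57, measured 7.78 to 8.03 in Low and 7.79 to 8.18 in High lines, a difference of 0.04 (limma adjusted p = 0.902). Phlda2, which restrains growth of the placenta, measured 7.03 to 7.32 and 7.11 to 7.39, a difference of 0.06 (limma adjusted p = 0.855). Ascl2, a transcription factor of the placenta, measured 7.07 to 7.47 and 7.35 to 7.60, a difference of 0.13 (limma adjusted p = 0.733). The 3 genes overlapped between the classes. Their signals were low, and the markers of other cell types averaged 7.10 to 7.36, so small differences here do not show steady expression.

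In the Dlk1-Dio3 domain, Dlk1 gave a steady signal. Dlk1 measured 13.80 to 13.94 in Low and 13.76 to 13.87 in High lines, where the brightest probe set of each array reached 14.33 to 14.47, so these values lie near the upper end of the scale. Its range over the 10 lines was 0.18, the narrowest of the 24. The difference was -0.04 (95% confidence interval -0.16 to 0.08, limma adjusted p = 0.861). Meg3, the maternally expressed non-coding RNA of the domain, measured 7.28 to 7.54 in Low lines and 7.27 to 7.83 in High lines, with the highest value in High replicate 4. Without that line its difference went from 0.05 to -0.04. Dio3, which inactivates thyroid hormone, measured 6.71 to 7.07 and 6.66 to 7.13, also highest in High replicate 4. Signals of Meg3 and Dio3 were low too, beside the 7.10 to 7.36 that markers of other cell types averaged. Rian, a host of small nucleolar RNAs, stayed below the 25th percentile in all 10 arrays, at 5.55 to 6.12.

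Plagl1 encodes a paternally expressed zinc finger factor that acts on other imprinted genes, and it differed between clones without following the classes. It measured 7.95, 7.49, 7.69, 8.35 and 7.75 in Low lines and 7.63, 8.22, 8.60, 7.94 and 7.45 in High lines. High replicate 3 was highest and High replicate 5 lowest. The difference was 0.12 (95% confidence interval -0.34 to 0.59, limma adjusted p = 0.882), and it was -0.03 without High replicate 3.

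The Peg10-Sgce domain gave 4 tested members. Peg10, derived from a retrotransposon and needed for the placenta, measured 12.55 to 12.80 in Low and 12.28 to 12.89 in High lines. Sgce, the gene of epsilon-sarcoglycan that starts beside it on the opposite strand, measured 12.29 to 12.77 and 12.33 to 12.58. Both are paternally expressed, and their lines did not follow each other: High replicate 5, lowest for Peg10, measured 12.52 for Sgce. Ppp1r9a, the gene of neurabin, measured 6.75 to 6.90 and 6.84 to 7.14, a difference of 0.15 (limma adjusted p = 0.649). Asb4, the gene of an ankyrin repeat and SOCS box protein, measured 6.42 to 6.61 and 6.49 to 6.62. Signals of Ppp1r9a and Asb4 were low, beside the 7.10 to 7.36 that markers of other cell types averaged. Differences in this domain ran from -0.04 to 0.15.

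The remaining tested members had differences between -0.10 and 0.10. Nnat, the gene of a small endoplasmic reticulum protein, measured 7.20 to 7.40 in Low and 7.33 to 7.55 in High lines, a difference of 0.10, and Peg12 differed by -0.10 (limma adjusted p = 0.738 and 0.740). Magel2 differed by 0.10, Rasgrf1, a Ras exchange factor, by 0.05 and Nap1l5, a retrogene related to nucleosome assembly proteins, by 0.05. Signals of Nnat, Magel2, Rasgrf1 and Nap1l5 were low, beside the 7.10 to 7.36 that markers of other cell types averaged. The class differences of Ndn and Peg3 change sign without their distant line. Ndn differed by 0.26 with it and by -0.04 without it, and Peg3 by -0.06 and 0.30, with no adjusted p under 0.05 in limma in any of these fits.

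Across lines, 2 clones held many of the members' extremes. High replicate 4 was the highest line for 9 of 24 members (37.5%), where it was the highest for 28.9% of all tested genes. With the trend with mean signal removed it was highest for 3 members (12.5%), against 15.7% of all genes. High replicate 5 was the lowest line for 7 members (29.2%), against 10.1% of all tested genes, and with the trend removed for 9 (37.5%), against 8.87%. The 7 were Igf2, Dlk1, Dio3, Plagl1, Peg12, Peg10 and Nap1l5, all paternally expressed, as were 16 of the 24 tested members. Cdkn1c and Meg3, both maternally expressed, joined them after removal of the trend. Of the 7, Igf2 and Peg10 had the widest gaps to the next line. Igf2 measured 7.30 against 7.73 to 8.73 in the other lines, and Peg10 12.28 against 12.44 to 12.89. Other gaps were small, as for Peg12, at 8.99 against 9.01 to 9.28, and Dlk1, at 13.76 against 13.80 to 13.94. The median deviation of High replicate 5 over the members was -0.030, against -0.014 over all tested genes. With the trend removed it was -0.0032 over the members.

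Members of the same domain were then compared pair by pair over the 10 lines. There were 19 pairs of tested members in a shared domain, which overlap in genes and share all lines, and 0 passed a permutation test after adjustment over the 19 pairs, with 3 at an unadjusted permutation p under 0.05. The median r was 0.29, against 0.20 over 16262 pairs of adjacent tested genes of the genome. Cdkn1c and Ascl2 had the highest correlation, with Pearson's r = 0.84 (permutation p = 0.00304, adjusted 0.0578) and Spearman's rho = 0.84 (permutation p = 0.00388, adjusted 0.0737). Of adjacent pairs, 3.19% had an r at least as high. Without Low replicate 5 and High replicate 4, the lines farthest from the median of Cdkn1c, r was 0.70, and with the trend with mean signal removed it was 0.51.

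Meg3 and Dio3 had r = 0.71 (permutation p = 0.014, adjusted 0.133) and rho = 0.61 (permutation p = 0.0658, adjusted 0.309), and 10.1% of adjacent pairs reached that r. It was 0.43 without High replicates 3 and 4, the lines farthest from the median of Meg3, and 0.17 over all 10 lines with the trend removed. Phlda2 and Ascl2 had r = 0.64 (permutation p = 0.0445, adjusted 0.282) and rho = 0.49 (permutation p = 0.156, adjusted 0.493). It was 0.37 without Low replicate 5 and High replicate 2. Meg3, Dio3, Phlda2, Ascl2 and Cdkn1c all gave low signals, and markers of other cell types averaged 7.10 to 7.36. Whether weak signal had a part in these correlations was not tested. Igf2r and Airn had r = 0.27 (permutation p = 0.455, adjusted 0.662) and rho = 0.04 (permutation p = 0.919, adjusted 0.970), with r = 0.15 without High replicates 1 and 2. Ndn and Magel2 had r = 0.40 (permutation p = 0.299, adjusted 0.631) and rho = 0.44 (permutation p = 0.205, adjusted 0.557), with 0.48 without Low replicate 2 and High replicate 2.

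**Figure D4:**
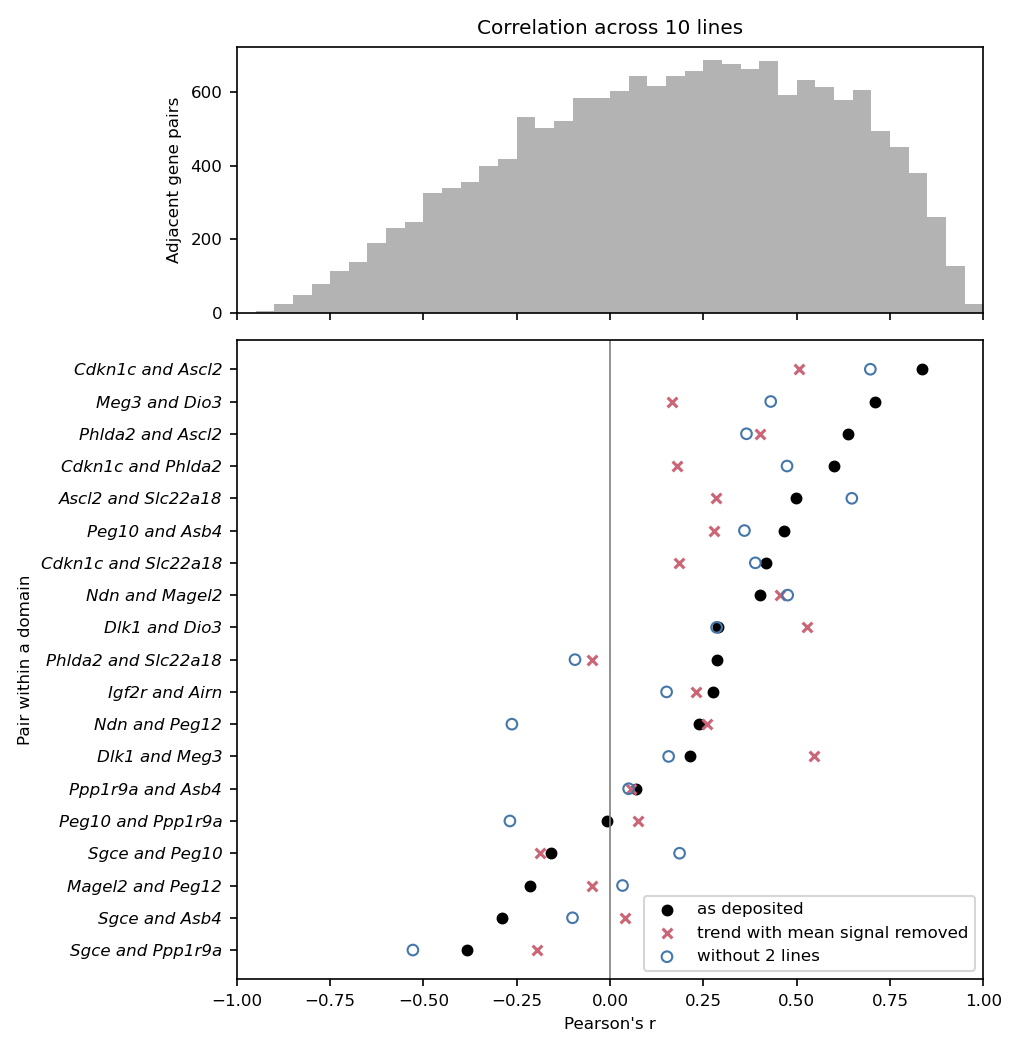
Upper panel, Pearson's r across the 10 lines for 16262 pairs of adjacent tested genes (number of pairs per bin). Lower panel, r of the 19 within-domain pairs of imprinted genes as deposited (black), with the trend with mean signal removed (red crosses) and without the 2 lines farthest from the median of the first gene (blue circles); the black points spread over much of the range of the adjacent pairs, and Cdkn1c and Ascl2, at 0.84, is highest.

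A wider list of 50 imprinted genes, Mest and Grb10 included, gave 41 tested genes. None passed the adjusted threshold in limma, and 3 (Mest, Tspan32 and Slc22a2) were higher and 2 (Begain and Gab1) lower in High lines at an unadjusted p under 0.05, which is 12.2% against 7.95% of all tested genes. Without Mest and Grb10 it was 4 of 39, or 10.3%. The median difference was 0.01 with and without them. Mest, the paternally expressed gene linked to fat cell size, measured 6.56 to 6.90 in Low lines and 9.39, 9.77, 10.93, 9.76 and 6.62 in High replicates 1 to 5. Grb10 measured 12.19, 6.75, 12.08, 12.15 and 12.28 in Low and 12.29, 12.18, 11.79, 9.19 and 9.53 in High lines. Begain, beside the Dlk1-Dio3 domain, differed by -0.24, the adaptor gene Gab1 by -0.23 and Tspan32 by 0.35. The limma adjusted p was 0.277 for Mest, 0.482 for Begain and Tspan32 and 0.511 for Gab1. Zdbf2, Qpct and Xist were below the 25th percentile in every array.

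Genes of the machinery that sets and keeps imprints were measured as a list of 35, of which 32 were tested. None passed in limma, 26 of 32 had negative differences and the median was -0.05, where 42.0% of all tested genes had a negative difference. With the trend removed the count was 24 of 32, against 48.7% of all. At an unadjusted p under 0.05 in limma there was 1 gene, or 3.12%, against 7.95% of all tested genes. That gene was Arid4a, which encodes a chromatin protein linked to imprint control. Its Low mean was 9.05 ± 0.15 and its High mean 8.60 ± 0.15 (SD, n = 5). Arid4a differed by -0.45 (limma adjusted p = 0.255). The median of the nearest genes around Arid4a differed by -0.14 between the classes. With that median removed, Arid4a differed by -0.31. The part of the region in the difference of Arid4a was not tested. The histone methyltransferase genes Ehmt2 and Ehmt1 differed by 0.16 and -0.11, and Hells, a chromatin remodeller needed for DNA methylation, by -0.17. In the IGF system 18 of 19 listed genes were tested and 0 passed, with a median difference of -0.01. An unadjusted p under 0.05 in limma was reached by 2 genes (11.1%), against 7.95% of all tested genes. Both were lower in High lines, as 4.79% of all tested genes were. These were Igf1r, the receptor that carries the growth signal of IGF2, at -0.22 (limma adjusted p = 0.482), and Irs2, an adaptor downstream of it, at -0.31 (limma adjusted p = 0.537). Lin28b and Lin28a, RNA-binding regulators of growth, differed by -0.19 and 0.16.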

How the data were processed

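Gene expression was measured on arrays from total RNA of 10 clones, made into biotin-labelled sense-strand DNA with a whole-transcript kit per the labels' protocols. The deposited values are log2 intensities, 1 per probe set and array. Per the submitters' processing notes the authors used RMA, with no version named. Not given in the sources used here are its settings and any batch. Because RMA makes the arrays' distributions alike, it would remove a shift common to most genes.

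Of 34760 probe sets, 21640 carried 1 gene symbol, 1321 several, and 11799 were unnamed in the platform annotation. Those with 1 symbol stood for 19937 genes, of which 16339 passed the filter. Entrez IDs of 21553 probe sets were found in the RefSeq table of GRCm38.p6, used for gene order. The 2 classes were set against each other in limma 3.58.1 (R 4.3.3, lmFit then eBayes), two-sided, adjusted by Benjamini and Hochberg's method over all tested genes at 0.05. Pair correlations used 100000 permutations, two-sided. Other steps used Python 3.11.15, pandas 2.3.3, numpy 2.4.6, statsmodels 0.14.6 (loess span 0.3) and matplotlib 3.10.9. Precision is limited by the number of lines, as an array has no read depth, and p-values measure the spread between clones and arrays together.

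The members and lists were chosen with earlier results of these data known. All 34 members could be named. Of the wider imprinted, machinery and IGF lists, the 4 genes with the smallest p were named. Genes of these lists holding a line 1 log2 unit or more from the median of the 10 lines were named too. Of the marker lists, those with an unadjusted p under 0.05 were named. Alternatives covered the filter, probe sets, normalization between arrays, variance model, array weights, a block made of the first digit in each clone's name, removal of the median of the 50 nearest genes, and leaving out each line. Removal of each array's trend with mean signal was chosen after seeing the data.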

Additional observations from a re-analysis of the deposited data

Results flagged for a closer look

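Within each class of 5 lines, the highest and lowest value of each tested member was set against its nearest neighbour, as the gap over the range. Of 48 sets of 5 values, 5 had a line flagged by this rule. Chance alone gives about 2.4 (1 in 20) for independent sets, but these sets share the same arrays. In Low lines, Ndn in replicate 2 was 10.74 against 12.19 to 12.32, and Igf2 in replicate 1 was 8.14 against 7.73 to 7.76. The other 3 were all High replicate 4, whose deviations fell with mean signal (r = -0.37 across genes). Magel2 measured 7.68 there against 7.27 to 7.34 in the other High lines, Nnat 7.55 against 7.33 to 7.39, and Sgce 12.33 against 12.52 to 12.58. Peg3 in Low replicate 2, at 10.52, was not among the 5 because the other Low lines were themselves spread from 8.30 to 9.11.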

How the results depend on the processing

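No paired analysis was possible because the labels give no replicate numbers and each line is a separate clone. The differences of the 24 members were recomputed 470 times over 20 alternatives, and 443 kept their sign and stayed short of the threshold, 27 changed sign (12 of them with 1 line left out) and 0 passed in limma. The genes past the threshold over the whole table numbered 2 with arrays centred on their medians, 3 with array weights, 0 with a block made of the first digit in each clone's name, and 1 to 19 with 1 line left out (19 without High replicate 5). Members with an unadjusted p under 0.05 numbered 1 with that block and 1 to 5 with 1 line left out (5 without High replicate 5, 1 without Low replicate 1 or High replicate 1). The median difference over members was -0.028 with the stricter filter, -0.0041 with the trend with mean signal removed, and 0.018 to 0.088 with 1 line left out. Members with a line apart numbered 6 at a distance of 1.5-fold and 0 at 2 log2 units.

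Sign changes with the block were -0.046 for Meg3, -0.018 for Dio3, 0.018 for Peg3, -0.22 for Ndn, 0.081 for Sgce, 0.23 for Peg10 and -0.026 for Nap1l5. With the trend removed they were -0.0058 for Cdkn1c, -0.0082 for Meg3, -0.014 for Dio3, -0.0068 for Asb4 and -0.0031 for Nap1l5. Cdkn1c gave -0.0025 with the neighbourhood removed, and array weights gave -0.00080 for Dio3 and 0.020 for Sgce. With 1 line left out the range was -0.12 to 0.061 for Igf2r, -0.015 to 0.084 for Cdkn1c, -0.042 to 0.097 for Meg3, -0.022 to 0.096 for Dio3, -0.25 to 0.30 for Peg3, -0.033 to 0.25 for Plagl1, -0.045 to 0.35 for Ndn, -0.078 to 0.041 for Sgce, -0.11 to 0.049 for Peg10 and -0.020 to 0.11 for Nap1l5.

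Among pair correlations, r with the neighbourhood removed was -0.099 for Phlda2 and Slc22a18, -0.75 for Dlk1 and Meg3, -0.57 for Dlk1 and Dio3, 0.10 for Sgce and Ppp1r9a, 0.32 for Sgce and Asb4 and 0.061 for Peg10 and Ppp1r9a. With the trend removed it was -0.049 for Phlda2 and Slc22a18, 0.039 for Sgce and Asb4 and 0.075 for Peg10 and Ppp1r9a. Repeated quantile normalization gave 0.020 for Magel2 and Peg12, 0.032 for Peg10 and Ppp1r9a and -0.21 for Ppp1r9a and Asb4. Spearman's rho was -0.24 for Ndn and Peg12 and 0.21 for Peg10 and Ppp1r9a. Without the 2 lines farthest from the median of the first gene, r was -0.094 for Phlda2 and Slc22a18, -0.26 for Ndn and Peg12, 0.033 for Magel2 and Peg12 and 0.19 for Sgce and Peg10. The cause of these changes was not tested. With 5 lines per class, single lines set the limits of most estimates.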

Other observations

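Slc22a18 and Mest were highest in the same 4 lines, all of them High, a description made after both were seen and not tested. The 4 lines with the highest Slc22a18, High replicates 1 to 4 at 9.01, 8.58, 8.10 and 8.25, were those with Mest at 9.39, 9.77, 10.93 and 9.76. High replicate 5 measured 7.84 and 6.62 and lay in the Low range for both. Within the 4 lines the order of the 2 genes differed, since Mest was highest in High replicate 3 and Slc22a18 in High replicate 1. Among Low lines the order differed too, with Mest highest in replicate 5 and Slc22a18 in replicate 3.

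Genes of IGF-binding proteins differed in how far they varied. The range over the 10 lines was 3.12 for Igfbp3, 2.17 for Igfbp4 and 1.94 for Igfbp6, wider than the 1.43 of Igf2, and 0.60 for Igfbp1, 0.43 for Igfbp2, 0.19 for Igfbp7 and 0.14 for Igfbp5, on the log2 scale. Igfbp3, the gene of the main circulating IGF carrier, ran from 8.33 in Low replicate 1 to 11.45 in Low replicate 2, a range of 8.68-fold, and was 1.31 and 1.22 above the median of the 10 lines in High replicates 4 and 5. Low replicate 2 and High replicates 4 and 5 were also the 3 lines in which Grb10 was lowest. This match was noticed after both were seen and was not tested. High replicate 1 came next for Igfbp3, at 10.36, and had the highest Grb10, 12.29. Igfbp4 was 1.16 above its median in Low replicate 3 and 1.01 below it in High replicate 4, and Igfbp6 was 1.03 below it in Low replicate 2. High minus Low differences were 0.76, -0.49 and 0.21 for Igfbp3, Igfbp4 and Igfbp6, none past the threshold in limma (adjusted p = 0.763, 0.789 and 0.868). Nlrp2, linked to imprinting through the oocyte, ran from 8.53 in Low replicate 2 to 10.68 in Low replicate 5. The placental imprinted gene Tfpi2 was 1.12 below its median in Low replicate 2, and Dcn, the gene of the matrix proteoglycan decorin, 1.05 below in Low replicate 1.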
